A study of Homo sapiens with 4 samples.

Results

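The genes of the mitochondrial respiratory chain and ATP synthase were compared between the human malignant glioma cell line GBM8401 made resistant to temozolomide (TMZ), an alkylating drug used against glioblastoma, and its parental line. A gene was a member if it was protein-coding and its GENCODE 29 symbol began with NDUF, UQCR, ATP5 or COX followed by a digit, or if it was CYC1, CYCS or one of the mitochondrial genes with the prefix MT-ND, MT-CO, MT-CYB or MT-ATP. This gave 119 members among the 58219 gene IDs measured, 106 in the nuclear genome and 13 in the mitochondrial genome. The TMZ-resistant group held 2 RNA-seq libraries of cells kept in medium with 200 µM TMZ for 140 days, and the parental group held 2 libraries of the GBM8401 line it was derived from. GBM8401 was grown in RPMI1640 with fetal bovine serum, penicillin and streptomycin. The labels name 1 derived line for both TMZ-resistant libraries. The labels call the replicates biological without linking their numbers to a day or culture, so the p-values measure the spread between these libraries and not between independently derived lines.

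The respiratory chain moves electrons from NADH and succinate through complexes I to IV to oxygen and pumps protons across the inner mitochondrial membrane, and ATP synthase (complex V) uses the proton gradient to make ATP. Complexes I, III, IV and V are each assembled from subunits of both genomes, so their assembly draws on nuclear genes read in the nucleus and on mitochondrial genes read as long transcripts from both strands of a small circular chromosome. Many gliomas rely on glycolysis and still keep a working respiratory chain.

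The deposited values are scaled fragments per gene: fragment numbers multiplied by 1 factor per library, not divided by gene length. Their totals were 23163310.4 and 24225039 in the TMZ-resistant libraries and 24791254 and 25832511 in the parental ones. Across genes, the Pearson r between replicates was 0.991 in TMZ-resistant and 0.989 in parental cells, against 0.965 to 0.971 between groups. Of the astrocyte markers, GFAP, S100B and SOX2 were at or near 0 in all libraries (at most 10.5), while EGFR, VIM, NES, CD44 and SOX9 were expressed. VIM, NES, CD44 and SOX9 were lower in TMZ-resistant cells, while EGFR, OLIG2 and FABP7 did not pass. The summed level of the 10 glioma and astrocyte markers, most of it VIM, was 77734 and 86666 in TMZ-resistant libraries, against 116286 and 122786 in parental ones. The epithelial keratins KRT8 and KRT18 were higher (log2 fold changes of 1.07 and 0.85). EPCAM, CDH1 and KRT19 overlapped between the groups and did not pass. The summed level of the 5 epithelial markers, most of it KRT8 and KRT18, was 35201 and 36865 in TMZ-resistant and 18587 and 20478 in parental libraries. Of the 5 markers each of blood cells, neurons and striated muscle 1 was higher (CD68, RBFOX3 and TNNT2). The summed level of the blood cell markers, most of it CD68, was 1033 and 1088 in TMZ-resistant and 667 and 607 in parental libraries. The neuron markers summed to 2689 and 3281 in TMZ-resistant and 2369.97 and 3003 in parental libraries, and the muscle markers to 43.7 and 43.3 in TMZ-resistant and 24.4 and 30.6 in parental ones. Of 5 endothelial markers 2 were lower, with sums of 973 and 877 in TMZ-resistant and 1207 and 1363 in parental libraries, and of 5 melanocyte markers 1 was lower, with MLANA and TYR listed at 0. None of the 5 fibroblast markers passed. The part of these differences in the results on the respiratory chain was not tested.

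Respiratory chain members of the nuclear and the mitochondrial genome gave different counts of calls, a difference that was not itself tested. Mitochondrially encoded RNAs fell or did not pass the test. In the values as deposited, nuclear-encoded subunits rose about as often as all genes and fell less often. The largest falls among nuclear members were in complex I assembly factors, the Rieske protein UQCRFS1 and cytochrome c. Genes were tested with limma on log2(value + 1), and a member rose or fell where its Benjamini-Hochberg adjusted p over all 16132 genes tested was under 0.05. Of the 13 mitochondrial members 7 fell and 0 rose (limma; 8 lower and 0 higher at an unadjusted p under 0.05), with a median log2 fold change of -0.31. Of the 98 nuclear members tested 13 rose and 7 fell (21 and 11 at an unadjusted p under 0.05), with a median of 0.09. The share of all genes at an unadjusted p under 0.05 was not counted, so unadjusted counts here and below have no background to be read against. Among all genes tested, 16.2% were called higher and 20.9% lower, with a median of -0.02. The nuclear share called higher, 13.3%, lay near that background, and the share called lower, 7.14%, lay below it. Of the 75 nuclear-encoded subunits tested, without assembly factors, copies and read-through genes, 12 rose and 3 fell. Their share called higher also lay near that background, and their share called lower lay below it. Of the protein-coding genes at the expression level of the middle 80% of nuclear members, 15.7% rose and 27.8% fell. The groups did not overlap in 8 mitochondrial members, all lower, and in 67 nuclear members, 46 higher and 21 lower, where 32.2% of all genes lay without overlap on the higher side and 36.4% on the lower side.

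These counts depended on scaling and on single libraries. With each library scaled to its total, 29 nuclear members rose and 5 fell, and 6 mitochondrial members fell. In that scaling 22.7% of all genes were called higher and 17.2% lower. With TMM factors 23 nuclear members rose and 7 fell, beside 19.6% of all genes higher and 19.8% lower. Without TMZ-resistant replicate 2, 3 nuclear members rose and 3 fell, beside 8.41% and 15.1% of all genes. Without TMZ-resistant replicate 1 the counts were 7 and 4, beside 9.37% and 12.5%. The 7 mitochondrial falls became 4 without TMZ-resistant replicate 1 and 4 without parental replicate 2, where 16.7% of all genes fell.

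**Figure D1:**
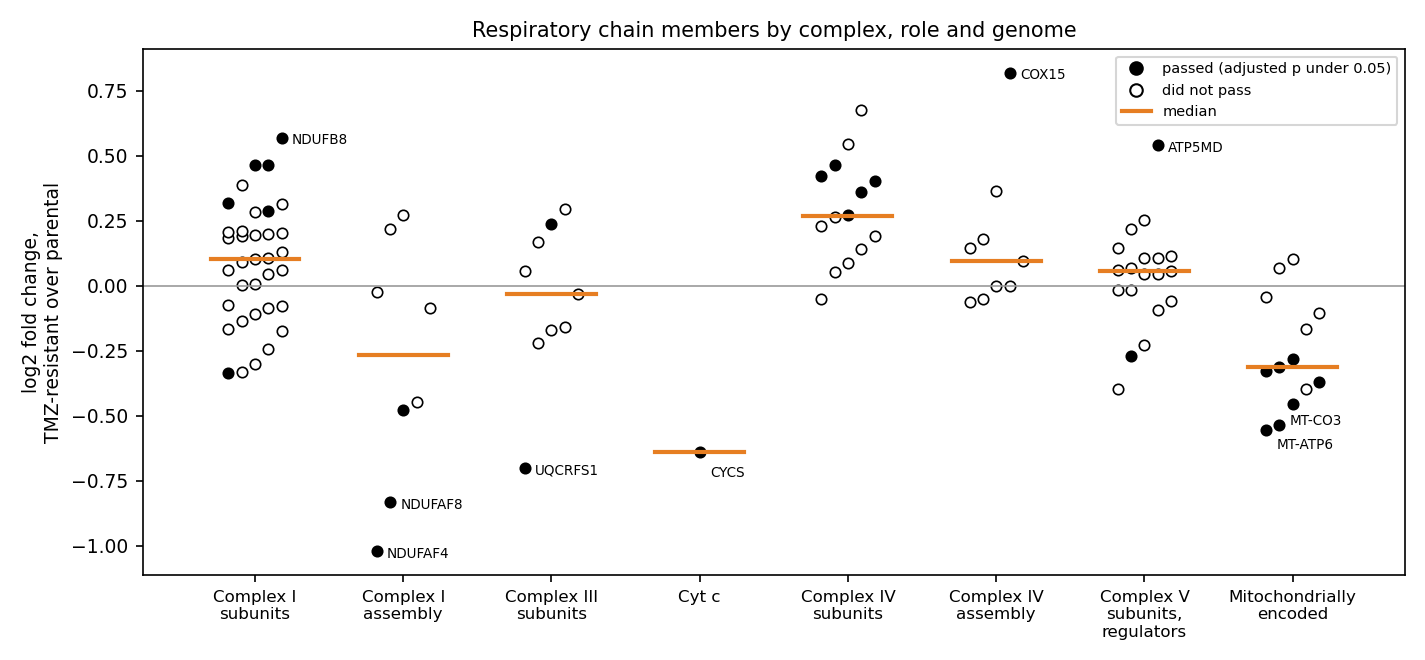
Log2 fold change (TMZ-resistant over parental) of the members tested, without copies and read-through genes, by complex, role and genome. Filled points passed the test (limma, adjusted p under 0.05), open points did not, and orange bars are group medians. Apart from cytochrome c, which is CYCS alone and lies lower, they run from -0.31 for the mitochondrial members to 0.27 for complex IV subunits.

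The mitochondrial genome encodes subunits of complexes I, III, IV and V on a chromosome of which both strands are transcribed end to end, and most of the 13 coding regions are cut out of the same long heavy-strand transcript. Levels fell in 4 of the 7 complex I genes, in the single complex III gene, in 1 of 3 complex IV genes and in 1 of 2 complex V genes. Per kb of exon, MT-CO1, the catalytic subunit of complex IV, was the most abundant of the 13 in both groups, with a mean level of 175039 scaled fragments per kb in TMZ-resistant and 163132 in parental cells. MT-ND3, a small complex I subunit, was the least abundant, with 5575 per kb in TMZ-resistant and 6239.8 in parental cells.

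MT-ATP6 (mitochondrial chromosome, 8527 to 9207, plus strand), the subunit of ATP synthase that forms its proton channel, had 34315 and 31341 in TMZ-resistant and 45439 and 51173 in parental libraries. Both TMZ-resistant libraries lay below both parental ones. The level fell 1.47-fold (log2 fold change -0.56 ± 0.08 (SE), limma adjusted p = 0.00137), the largest fall of the 13. MT-CO3 (mitochondrial chromosome, 9207 to 9990, plus strand), a core subunit of complex IV that lies next to it, had 42700.1 and 43466 in TMZ-resistant and 59026 and 66051 in parental libraries. It too was without overlap and fell 1.45-fold (log2 fold change -0.54 ± 0.07 (SE), limma adjusted p = 0.000985). MT-ATP8, whose coding region overlaps that of MT-ATP6, had 10564 and 12382 in TMZ-resistant and 12942 and 17562 in parental libraries. Its groups did not overlap, but the difference did not pass (log2 fold change -0.40 ± 0.15 (SE), limma adjusted p = 0.088). The 46 bases that MT-ATP8 and MT-ATP6 share are shown because fragments from them belong to both genes (GRCh38, chrM:8527-8572, plus strand, from GENCODE 29 transcripts). Capitals mark the start codon of MT-ATP6 and the stop codon of MT-ATP8.
MT-ATP8 and MT-ATP6 overlap: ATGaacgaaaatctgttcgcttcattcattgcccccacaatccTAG
How the deposited table divided such fragments is not stated for this table. The sum of MT-ATP8, MT-ATP6 and MT-CO3 does not depend on that division and was 87580 and 87188 in the TMZ-resistant libraries, against 117407 and 134787 in the parental ones, a ratio of means of 0.693. MT-ATP6 also has a near-identical nuclear copy on chromosome 1, MTATP6P1, listed at 10933 and 9564 in TMZ-resistant and 14857 and 14100 in parental libraries. The sum of MT-ATP6 and this copy was lower by the same order, with a ratio of means of 0.686.

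MT-ND1 (mitochondrial chromosome, 3307 to 4262, plus strand), a membrane subunit of complex I beside the ubiquinone site, had 26490.3 and 30902 in TMZ-resistant and 37628 and 40834 in parental libraries. The groups were apart, and the level fell 1.37-fold (log2 fold change -0.45 ± 0.09 (SE), limma adjusted p = 0.00482). MT-ND4L, which shares 7 bases with MT-ND4, had 14123 and 14308 in TMZ-resistant and 17985 and 17369 in parental libraries. Its replicates lay close together, and it fell by 0.31 on the log2 scale (limma adjusted p = 0.00662). MT-ND4, a proton-pumping subunit, had 80638 and 81527 in TMZ-resistant and 91020.4 and 106604 in parental libraries and a log2 fold change of -0.28 (limma adjusted p = 0.0287). MT-ND5, the outermost proton-pumping subunit, had 49455 and 57131 in TMZ-resistant and 61383 and 72629.7 in parental libraries and a log2 fold change of -0.33 (limma adjusted p = 0.0367). MT-CYB, the cytochrome b of complex III, had 41768 and 46057 in TMZ-resistant and 50806 and 63137 in parental libraries and a log2 fold change of -0.37 (limma adjusted p = 0.0313). In MT-ND4, MT-ND5 and MT-CYB the groups did not overlap, but the gap between them was smaller than the difference between the parental replicates. MT-ATP6, MT-CO3, MT-ND1 and MT-ND4L kept their calls when any 1 library was left out. MT-ND4, MT-ND5 and MT-CYB lost theirs without TMZ-resistant replicate 1 (limma adjusted p of 0.0991 to 0.183) and without parental replicate 2 (0.121 to 0.168), and MT-ND4 also without TMZ-resistant replicate 2 (0.0799).

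The remaining mitochondrial members did not pass the test. MT-CO1 had 251719 and 288101 in TMZ-resistant and 234588 and 268511 in parental libraries, and its groups overlapped (log2 fold change 0.10 ± 0.09 (SE), limma adjusted p = 0.425). MT-CO2, the complex IV subunit that takes electrons from cytochrome c, had 53728 and 69140 in TMZ-resistant and 50634 and 66831 in parental libraries (log2 fold change 0.07, limma adjusted p = 0.793). Neither complex IV gene separated the lines. MT-ND2, a membrane subunit of complex I, had 26676 and 31219 in TMZ-resistant and 25869.7 and 34175 in parental libraries and MT-ND3 had 1743 and 2116 in TMZ-resistant and 1995 and 2323 in parental libraries, with log2 fold changes of -0.04 and -0.16. MT-ND6, the only one of the 13 on the light-strand transcript, had 10427 and 15704 in TMZ-resistant and 11752 and 16091 in parental libraries and a log2 fold change of -0.10. In all of these the TMZ-resistant libraries lay within or across the range of the parental ones.

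The shares of some members in the mitochondrial coding RNA lay apart between the groups, a difference that was not tested. MT-CO1 made up 39.1% and 39.8% of the summed level of the 13 in TMZ-resistant libraries, against 33.5% and 32.6% in parental ones. MT-ATP6 made up 5.33% and 4.33% in TMZ-resistant and 6.48% and 6.22% in parental libraries. MT-CO3 made up 6.63% and 6.01% in TMZ-resistant and 8.42% and 8.02% in parental libraries. MT-CO1 took a larger share, and MT-ATP6 and MT-CO3 smaller ones, in both TMZ-resistant libraries than in either parental one. Relative to MT-CO1, the level of MT-ATP6 was 0.136 and 0.109 in TMZ-resistant and 0.194 and 0.191 in parental libraries. The ratio of MT-CO3 to MT-CO1 was 0.170 and 0.151 in TMZ-resistant and 0.252 and 0.246 in parental libraries. That of MT-ND1 to MT-CO1 was 0.105 and 0.107 in TMZ-resistant and 0.160 and 0.152 in parental libraries. A ratio within a library does not move with its scaling factor, and these 3 were without overlap between the groups. Their numerators were the 3 largest called falls of the 13, and MT-CO1 had the highest log2 fold change. Both were chosen from the same values, so the lack of overlap is no separate support. With 2 libraries against 2, an exact permutation test of such a ratio cannot give a p below 0.333. The ratio of MT-CO2 to MT-CO1 overlapped, at 0.213 and 0.240 in TMZ-resistant and 0.216 and 0.249 in parental libraries. These ratios describe unequal change in these libraries and do not show that MT-CO1 was constant.

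**Figure D2:**
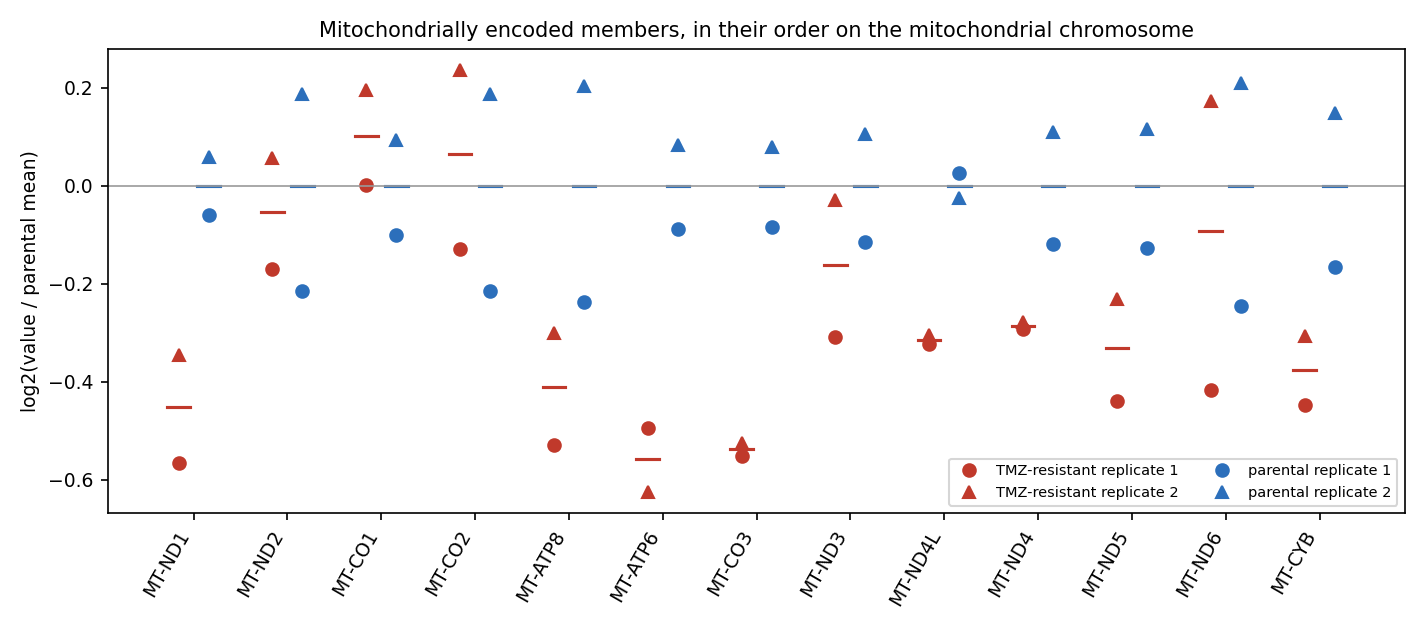
Level of each mitochondrial member in each library, as log2 of the value over the parental mean, in chromosome order from MT-ND1 to MT-CYB. Short bars are group means on the same axis. The TMZ-resistant group means of MT-ATP6 and MT-CO3 lie lowest, and the libraries of MT-CO1 and MT-CO2 overlap.

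Summed over the 13 genes, the mitochondrial coding level was 644346 and 723393 in TMZ-resistant libraries and 701068 and 823292 in parental ones, which overlap. It amounted to 2.78% and 2.99% of the library total in TMZ-resistant and 2.83% and 3.19% in parental cells. Without MT-CO1 and MT-CO2 the sums did not overlap, at 338899 and 366152 in TMZ-resistant and 415846 and 487950 in parental libraries. In bulk RNA, fewer mitochondrial transcripts per cell and fewer cells that carry many of them cannot be told apart. The ratio of the 13 mitochondrial to the 106 nuclear members was 4.58 and 5.01 in TMZ-resistant cells and 5.02 and 5.90 in parental cells. The mitochondrial rRNAs MT-RNR1 and MT-RNR2 did not pass, and the libraries of both overlapped between the groups.

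Complex I takes electrons from NADH through a matrix arm of redox centres and pumps protons through a membrane arm. Its nuclear-encoded subunits rose in 5 of 35 tested cases (14.3%) and fell in 1 (2.86%), with a median log2 fold change of 0.10. The share that rose lay near the 16.2% of all genes called higher, and the share that fell lay below the 20.9% called lower. NDUFB8 (chromosome 10, 100523740 to 100530000, minus strand), an accessory subunit of the membrane arm, had 1709 and 1719 in TMZ-resistant and 1166 and 1144 in parental libraries. The replicates were nearly equal and the groups far apart, with a rise of 1.48-fold (log2 fold change 0.57 ± 0.08 (SE), limma adjusted p = 0.00115). NDUFB5, also of the membrane arm, had 1273 and 1577 in TMZ-resistant and 951 and 1108 in parental libraries and rose by 0.46 on the log2 scale (limma adjusted p = 0.0218). NDUFA2, of the matrix arm, rose by 0.46 (limma adjusted p = 0.0221), and NDUFA13, at the junction of the arms, rose by 0.32 (limma adjusted p = 0.0463). NDUFB11, named after its value was seen because it completes the count, rose by 0.29 (limma adjusted p = 0.049). NDUFA5, a matrix arm subunit, had 946 and 879 in TMZ-resistant and 1128 and 1176 in parental libraries and fell by 0.34 on the log2 scale (limma adjusted p = 0.0203). Exons of NDUFB8, NDUFA2 and NDUFB11 overlap genes on the other strand (HIF1AN, IK with TMCO6, and RBM10), and NDUFA13 overlaps YJEFN3 on its own strand.

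Among the factors that build complex I and are not kept in it, falls outnumbered rises. Of the 8 NDUFAF genes 3 fell and 0 rose (limma; 4 lower and 0 higher at an unadjusted p under 0.05), beside 20.9% and 16.2% of all genes, with a median log2 fold change of -0.27. NDUFAF4 (chromosome 6, 96889313 to 96897881, minus strand), which acts early in the assembly of the matrix arm, had 172 and 209.8 in TMZ-resistant and 374 and 401 in parental libraries. Both TMZ-resistant libraries lay far below both parental ones, a 2.03-fold fall and the largest among the members tested (log2 fold change -1.02 ± 0.15 (SE), limma adjusted p = 0.00123). NDUFAF8, the partner of the assembly enzyme NDUFAF5, had 197 and 155 in TMZ-resistant and 275 and 356 in parental libraries. It fell 1.78-fold (log2 fold change -0.83 ± 0.18 (SE), limma adjusted p = 0.00857), and the call was lost without TMZ-resistant replicate 2 (limma adjusted p = 0.0557). NDUFAF5 itself had 89.6 and 112 in TMZ-resistant and 142 and 133 in parental libraries, without overlap, but did not pass (log2 fold change -0.45, limma adjusted p = 0.102). NDUFAF6 had 279 and 267 in TMZ-resistant and 349.8 and 413 in parental libraries and fell by 0.48 on the log2 scale (limma adjusted p = 0.0245). With 1 library left out its log2 fold change ran from -0.60 to -0.36, and its call was lost in more of these omissions than that of NDUFAF8. NDUFAF1, NDUFAF2, NDUFAF3 and NDUFAF7 had log2 fold changes between -0.08 and 0.27 that did not pass.

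Complex III passes electrons from ubiquinol to cytochrome c. Of its 9 nuclear subunits tested 1 rose and 1 fell, beside 16.2% and 20.9% of all genes, with a median log2 fold change of -0.03. UQCRFS1 (chromosome 19, 29205321 to 29213541, minus strand), the Rieske iron-sulfur protein and one of its redox subunits, had 1670.2 and 1506 in TMZ-resistant and 2388 and 2784 in parental libraries. Both TMZ-resistant libraries lay well below both parental ones, a 1.63-fold fall (log2 fold change -0.70 ± 0.10 (SE), limma adjusted p = 0.00124). The other nuclear redox subunit, the cytochrome c1 gene CYC1, had 5885 and 5039 in TMZ-resistant and 5849.8 and 6319 in parental libraries, and its groups overlapped (log2 fold change -0.16, limma adjusted p = 0.213). The core proteins UQCRC1 and UQCRC2, which hold the matrix side, did not pass, with log2 fold changes of 0.06 and 0.30. A gene with a clone-based name overlaps exons of UQCRFS1 on the other strand. Relative to UQCRC1, the level of UQCRFS1 was 0.294 and 0.248 in TMZ-resistant and 0.433 and 0.481 in parental libraries. The hinge protein gene UQCRH had 1932 and 1936 in TMZ-resistant and 1690.4 and 1594 in parental libraries and rose by 0.24 on the log2 scale (limma adjusted p = 0.048). Its near-identical copy UQCRHL, listed at 575 and 712 in TMZ-resistant and 521 and 490.5 in parental libraries, did not pass (limma adjusted p = 0.0682), and how fragments were divided between the pair is uncertain. Their sum was 2508 and 2648 in TMZ-resistant and 2211 and 2084 in parental libraries.

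Cytochrome c, which carries electrons from complex III to complex IV and triggers caspase activation when it leaves the mitochondrion, was lower. Its gene CYCS (chromosome 7, 25120091 to 25125361, minus strand) had 3060.3 and 3481 in TMZ-resistant and 5059.9 and 5096 in parental libraries. The parental replicates were nearly equal, and both TMZ-resistant libraries lay below them. The fall was 1.56-fold (log2 fold change -0.64 ± 0.08 (SE), limma adjusted p = 0.000826). The ratio of CYCS to CYC1 was 0.520 and 0.691 in TMZ-resistant cells and 0.865 and 0.806 in parental cells.

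Complex IV reduces oxygen to water, and its nuclear subunits surround the mitochondrially encoded catalytic core. Of the 14 tested nuclear subunits 5 rose (35.7%) and 0 fell (limma; 7 higher and 0 lower at an unadjusted p under 0.05), beside 16.2% and 20.9% of all genes, with a median log2 fold change of 0.27, and 13 of the 14 had a positive log2 fold change. In 10 of them the TMZ-resistant libraries lay entirely above the parental ones, and in 0 entirely below, where 32.2% of all genes lay without overlap on the higher side and 36.4% on the lower side. The 14 include the supercomplex factor COX7A2L and the low-level isoforms COX6B2 and NDUFA4L2, which did not pass. NDUFA4L2 had the largest log2 fold change of the 14 (0.68). COX7C had 1699.6 and 1963 in TMZ-resistant and 1243 and 1406 in parental libraries and rose 1.38-fold (log2 fold change 0.47 ± 0.10 (SE), limma adjusted p = 0.00912). COX6A1 had 1755 and 1759.7 in TMZ-resistant and 1375 and 1362 in parental libraries and rose by 0.36 on the log2 scale (limma adjusted p = 0.00844). Within each group the COX6A1 replicates were nearly equal. COX7A2 had 975 and 972 in TMZ-resistant and 683 and 772 in parental libraries and rose by 0.42 on the log2 scale (limma adjusted p = 0.0117). COX6B1 rose by 0.40 (limma adjusted p = 0.0245), and COX6C, named after its value was seen because it completes the count, rose by 0.27 (limma adjusted p = 0.0299). All 5 are small accessory subunits. Without TMZ-resistant replicate 2 none of the 5 kept its call. Of COX4I1, COX5A and COX5B, the larger nuclear subunits, none passed, with log2 fold changes of 0.14, -0.05 and 0.19.

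Of the 9 complex IV assembly factors 1 rose and 0 fell (1 and 0 at an unadjusted p under 0.05 in limma), beside 16.2% and 20.9% of all genes. Their median log2 fold change was 0.09. COX15 (chromosome 10, 99711844 to 99732100, minus strand), the enzyme that makes heme A for the catalytic subunit, had 2727 and 2604 in TMZ-resistant and 1472 and 1553 in parental libraries. The groups were far apart, and the rise of 1.76-fold was the largest among the members tested (log2 fold change 0.82 ± 0.08 (SE), limma adjusted p = 0.000248). COX10, which makes the heme O that COX15 uses, had 1105 and 1159 in TMZ-resistant and 1068 and 1054 in parental libraries and did not pass (log2 fold change 0.09, limma adjusted p = 0.439). Exons of COX15, COX6A1 and COX7C overlap genes with clone-based names on the same strand. The copper factors COX11, COX17 and COX19 had log2 fold changes between -0.05 and 0.18 that did not pass.

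ATP synthase has a catalytic head in the matrix and a rotor and proton channel in the membrane. Of its 17 nuclear subunits tested 1 rose and 1 fell, beside 16.2% and 20.9% of all genes, with a median log2 fold change of 0.06. The catalytic subunit ATP5F1B, the most abundant nuclear member per kb of exon (8106 scaled fragments per kb in TMZ-resistant and 8208 in parental cells), had 18696 and 18949.8 in TMZ-resistant and 18855 and 19264 in parental libraries, which overlap. ATP5MD (chromosome 10, 103389041 to 103396492, minus strand, now named ATP5MK), a small membrane subunit linked to dimers of the enzyme, had 974 and 961 in TMZ-resistant and 697 and 634 in parental libraries. It rose 1.45-fold without overlap (log2 fold change 0.54 ± 0.10 (SE), limma adjusted p = 0.00344), and its exons overlap those of TAF5 on the other strand. The rotor ring is built from 1 mature protein that 3 genes encode with different import signals. Of these, ATP5MC3 had 2712 and 2899 in TMZ-resistant and 3459.8 and 3298 in parental libraries and fell by 0.27 on the log2 scale (limma adjusted p = 0.0274). ATP5MC2 had 2443 and 2319 in TMZ-resistant and 2158 and 1939.9 in parental libraries, higher without overlap but not passing (log2 fold change 0.22, limma adjusted p = 0.0803), and ATP5MC1 overlapped, with 529 and 589 in TMZ-resistant and 535 and 594 in parental libraries. The ratio of ATP5MC3 to ATP5MC2 was 1.11 and 1.25 in TMZ-resistant and 1.60 and 1.70 in parental libraries, without overlap. ATP5IF1, which blocks the enzyme from hydrolysing ATP, had 1218 and 1203 in TMZ-resistant and 1445 and 1393 in parental libraries, lower without overlap but not passing (log2 fold change -0.23, limma adjusted p = 0.0598).

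**Figure D3:**
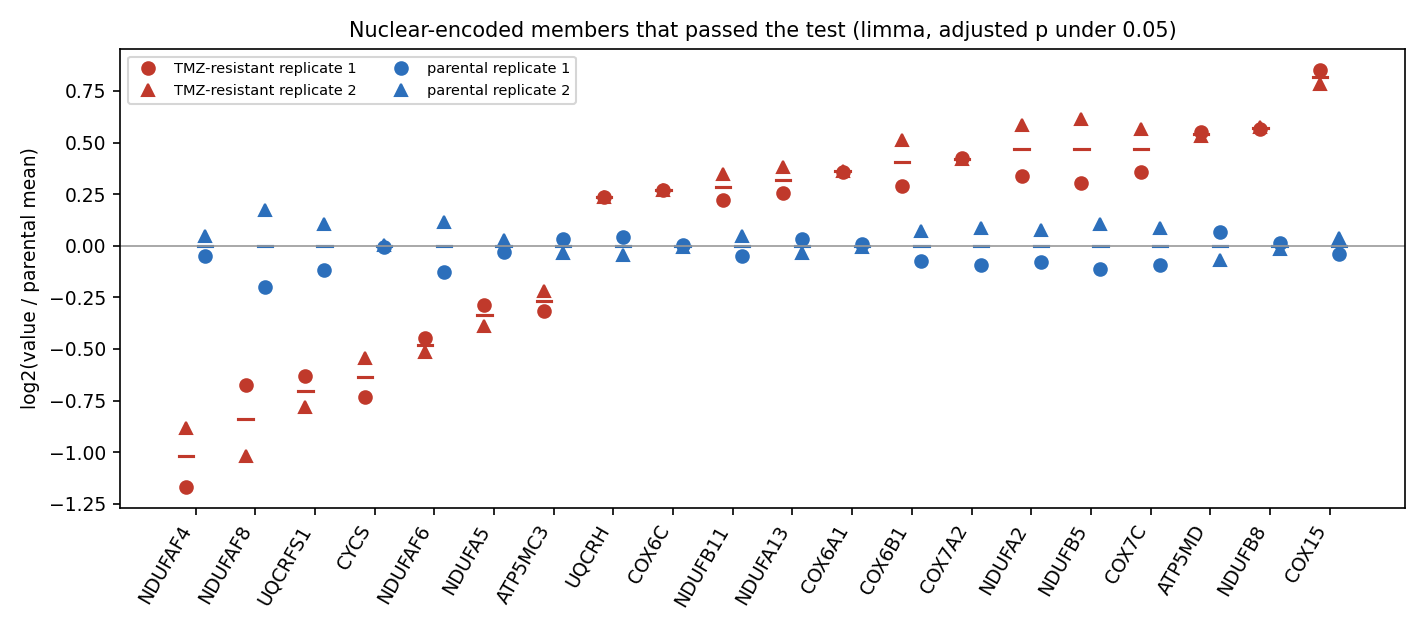
Level in each library of the 20 nuclear members that passed the test, as log2 of the value over the parental mean, ordered by fold change. Circles are replicate 1, triangles replicate 2 and short bars group means, and in all 20 both TMZ-resistant libraries lie on 1 side of both parental ones.

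Among the 20 nuclear calls, 6 held when any 1 library was left out: COX15, NDUFB8 and ATP5MD higher, and NDUFAF4, UQCRFS1 and CYCS lower. The other 10 rises all lost the call without TMZ-resistant replicate 2 (limma adjusted p of 0.0641 to 0.309), 6 of them without TMZ-resistant replicate 1 (0.0652 to 0.205), 7 without parental replicate 1 (0.0573 to 0.145) and 4 without parental replicate 2 (0.0519 to 0.157). The other 4 falls lost it without TMZ-resistant replicate 2 (0.0557 to 0.161), 3 of them without TMZ-resistant replicate 1 (0.0668 to 0.192), ATP5MC3 without parental replicate 1 (0.102), and 2 without parental replicate 2 (0.0623 to 0.105). All of these kept their direction.

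The 3 rises that held against every omitted library lie on the long arm of chromosome 10, between 99711844 and 103396492 (GRCh38). Most tested protein-coding genes around them were also higher. Within 2 Mb of COX15, 19 of 33 such genes rose and 0 fell, with a median log2 fold change of 0.59. Near NDUFB8 26 of 44 rose and 1 fell, with a median of 0.57, and near ATP5MD 28 of 45 rose and 1 fell, with a median of 0.59. Around the other 95 nuclear members tested, the neighbours' median ran from -0.34 to 0.23. The windows of these 3 members overlap and share genes, so they are not independent. Whether the members rose with this stretch of the chromosome was not tested. Outside chromosome 10, 10 of 94 nuclear members rose and 7 fell, beside 16.2% and 20.9% of all genes, with a median log2 fold change of 0.08.

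**Figure D4:**
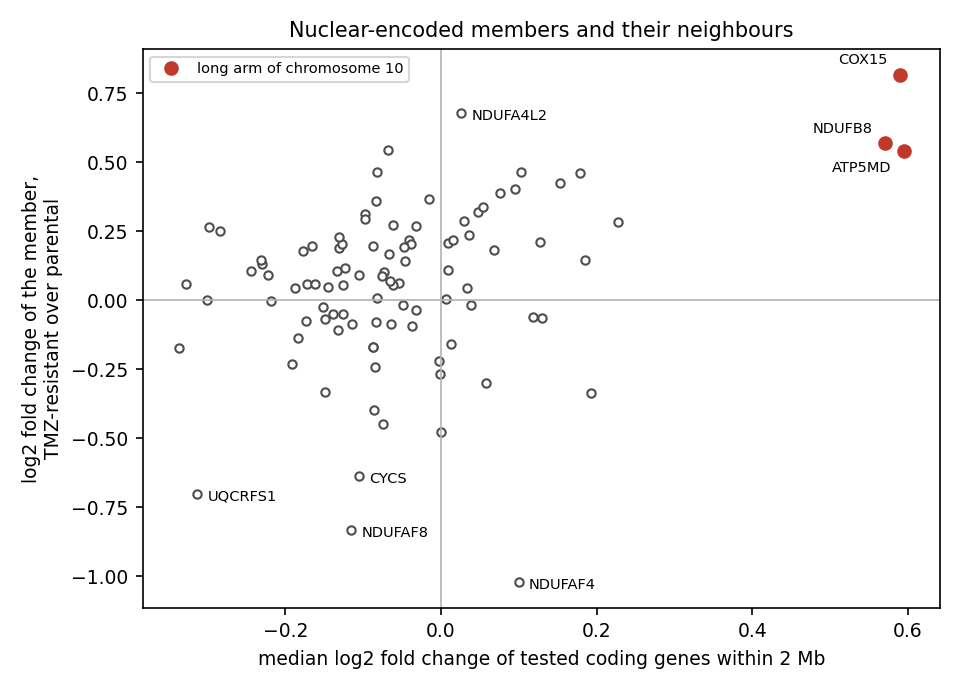
Log2 fold change of each nuclear member tested against the median log2 fold change of tested protein-coding genes within 2 Mb of it. COX15, NDUFB8 and ATP5MD (red), on the long arm of chromosome 10, lie at neighbour medians of 0.57 to 0.59, while all others lie between -0.34 and 0.23.

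Several complex IV subunits have an isoform gene known from muscle, lung or testis. COX6A2, COX7B2 and COX8C were listed at 0 in every library, as were some genes that every cell uses, so these zeros give no level. Of the ubiquitous forms, COX7B had 913 and 956 in TMZ-resistant and 805 and 788 in parental libraries and COX8A had 1642 and 1546 in TMZ-resistant and 1562 and 1436 in parental libraries, and neither passed. COX4I2, the lung isoform, was at most 2.44 and COX7A1, the muscle isoform, at most 4.52. COX6B2, the testis isoform, lay between 5.55 and 13.4 in all libraries and did not pass. The striated muscle markers ACTA1, MYH7 and CKM were at or near 0 (at most 5.94). NDUFA4, now known as a complex IV subunit, had 1192 and 1256 in TMZ-resistant and 966 and 1073 in parental libraries, higher without overlap but not passing (log2 fold change 0.26, limma adjusted p = 0.0561). Its hypoxia-induced relative NDUFA4L2 had 47.4 and 48.4 in TMZ-resistant and 36.6 and 23.9 in parental libraries (log2 fold change 0.68, limma adjusted p = 0.112). COX7A2L, a factor of supercomplexes between complexes III and IV, had 1961 and 1862 in TMZ-resistant and 1937 and 1749.6 in parental libraries and overlapped.

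The complex I subunits NDUFA3 and NDUFA6 were also listed at 0 in every library. Genes beside them were at or near 0 as well: TFPT beside NDUFA3 and SMDT1 beside NDUFA6 were listed at 0, and the ribosomal protein gene RPS9 was listed at 0 and 0.849 in TMZ-resistant and 4.07 and 0.956 in parental libraries. Within 200 kb, 7 of 20 protein-coding genes around NDUFA3 and 1 of 11 around NDUFA6 were listed at 0, against 13.8% of all protein-coding genes. RPS9, near NDUFA3, is used by every cell, so the zeros were not read as a level of the genes. Around NDUFA6 the share listed at 0, 9.09%, lay below that of all protein-coding genes. Why NDUFA3 and NDUFA6 were listed at 0 was not tested. The read-through genes NDUFC2-KCTD14 and ATP5MF-PTCD1 share exons with NDUFC2 and ATP5MF, and the division between them is uncertain. Summed with its read-through gene, NDUFC2 was 1054 and 1001 in TMZ-resistant and 1215 and 1027 in parental libraries, and ATP5MF was 1729 and 1537 in TMZ-resistant and 1611 and 1369 in parental libraries, both with overlap. ATP5MGL, a retrotransposed copy, was at most 3.01. In all, 8 of the 106 nuclear members stayed below the filter on low values, which asked for a value of at least 10 in 2 libraries.

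Promoters of respiratory chain genes are known for binding sites of NRF1, of ETS factors such as GABP, and of YY1. RefSeq promoter windows (GRCh38.p14, 250 bases before to 50 bases after the start) were found for 84 of the 106 nuclear members and searched on both strands. The NRF1 motif GCATGCGC was in 17 of 84 windows (20.2%), against 3.68% of all 27305 promoters and 6.17% of the 11307 promoters of genes tested. The ETS motif CCGGAAG was in 25 of 84 (29.8%), against 12.2% and 21.2%, and the YY1 motif AAGATGGC in 13 of 84 (15.5%), against 3.52% and 6.11%. Of the 5 windows of members that fell 3 held the NRF1 motif (NDUFAF4, NDUFA5 and CYCS), as did 1 of the 11 of members that rose (COX6A1) and 12 of the 63 of members that did not pass. The ETS motif was in 2 of the 5 windows of members that fell, 6 of the 11 of members that rose and 17 of the 63 that did not pass, and the YY1 motif in 1 of 5, 1 of 11 and 9 of 63. With so few members this is a description, and a match of letters is not evidence of binding. The 250 bases before the start are shown for the member that carries electrons between the complexes and for the largest fall and rise. Capitals mark the NRF1 motif in CYCS (chr7:25125261-25125510, minus strand) and the ETS motif in NDUFAF4 (chr6:96897892-96898141, minus strand) and COX15 (chr10:99732128-99732377, minus strand).
CYCS: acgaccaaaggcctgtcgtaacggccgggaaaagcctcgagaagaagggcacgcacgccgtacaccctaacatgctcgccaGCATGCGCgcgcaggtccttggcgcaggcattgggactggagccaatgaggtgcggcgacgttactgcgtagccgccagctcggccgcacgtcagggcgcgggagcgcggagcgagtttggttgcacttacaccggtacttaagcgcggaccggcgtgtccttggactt
NDUFAF4: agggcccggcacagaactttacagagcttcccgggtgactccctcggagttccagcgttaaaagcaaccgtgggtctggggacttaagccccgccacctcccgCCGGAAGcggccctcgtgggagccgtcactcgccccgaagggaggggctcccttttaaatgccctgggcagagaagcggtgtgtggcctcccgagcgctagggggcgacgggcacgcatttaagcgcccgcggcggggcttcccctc
COX15: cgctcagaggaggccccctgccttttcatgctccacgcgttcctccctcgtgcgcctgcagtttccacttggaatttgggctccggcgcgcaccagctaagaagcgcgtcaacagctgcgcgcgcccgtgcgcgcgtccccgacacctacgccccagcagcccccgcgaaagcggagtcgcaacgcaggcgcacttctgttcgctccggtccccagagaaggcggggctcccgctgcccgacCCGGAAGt
The CYCS match begins 169 bases before the start, the NDUFAF4 match 147 bases and the COX15 match 8 bases before it. The NRF1 match of NDUFAF4 lies after the start and is not in the stretch shown.

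Among regulators of mitochondrial biogenesis, falls outnumbered rises. Of the 10 tested 6 fell and 0 rose (limma; 7 lower and 0 higher at an unadjusted p under 0.05), with a median log2 fold change of -0.32, where 20.9% of all genes fell. PPARGC1B, a coactivator of genes for mitochondria, had 689.8 and 839 in TMZ-resistant and 1832 and 1743 in parental libraries and fell 2.35-fold (log2 fold change -1.23 ± 0.11 (SE), limma adjusted p = 0.000181). The groups were far apart. NRF1, whose motif was searched in the promoters, had 413 and 401 in TMZ-resistant and 639 and 617 in parental libraries and fell 1.54-fold (limma adjusted p = 0.0026). YY1 fell by 0.37 and GABPB1, a subunit of GABP, by 0.34 on the log2 scale (limma adjusted p of 0.00458 and 0.0176), while GABPA, the DNA-binding subunit, did not pass (log2 fold change -0.05). PPARGC1A, the better-known relative of PPARGC1B, was below the filter, at 1.51 and 1.70 in TMZ-resistant and 5.69 and 14.3 in parental libraries.

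A list of genes of mitochondrial transcription and RNA handling also fell more often than it rose. The list includes POLG, POLG2, TWNK, SSBP1 and MGME1, which serve mitochondrial DNA rather than RNA. Of the 29 tested 13 fell, MGME1 among them, and 1, POLG2, rose, beside 20.9% and 16.2% of all genes. The median log2 fold change was -0.22. TFAM, which packages mitochondrial DNA and starts its transcription, had 2191 and 2317 in TMZ-resistant and 3130.3 and 3372 in parental libraries and fell 1.44-fold (limma adjusted p = 0.00161). The enzymes that cut tRNAs out of the long transcripts include ELAC2, which cuts at the 3′ end, and the RNase P subunit TRMT10C, which serves the 5′ end. ELAC2 had 3978 and 3996 in TMZ-resistant and 5681 and 5575 in parental libraries, and TRMT10C had 568 and 635 in TMZ-resistant and 1017 and 951 in parental libraries. Neither overlapped, with falls of 1.41-fold and 1.64-fold (limma adjusted p of 0.00109 and 0.00129). PNPT1, which degrades mitochondrial RNA, fell 1.44-fold (limma adjusted p = 0.00159). The mitochondrial RNA polymerase POLRMT had 1477 and 1949 in TMZ-resistant and 1638 and 2073 in parental libraries, and LRPPRC, which stabilises mitochondrial mRNAs, had 9329 and 8683 in TMZ-resistant and 9244 and 9849 in parental libraries. Both had log2 fold changes (-0.12 and -0.08) that did not pass.

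Assembly factors outside the naming rule fell in 9 of 38 tested cases and rose in 2, with a median log2 fold change of -0.13. The share that fell lay near the 20.9% of all genes called lower. The largest calls were COA7, of complex IV assembly, with 1520.4 and 1578 in TMZ-resistant and 2852 and 2979 in parental libraries (log2 fold change -0.91 ± 0.08 (SE), limma adjusted p = 0.000151), and UQCC3, of complex III assembly, with 125 and 106 in TMZ-resistant and 209 and 211 in parental libraries (log2 fold change -0.86 ± 0.17 (SE), limma adjusted p = 0.00473). TMEM70, of ATP synthase assembly, and ACAD9, of complex I assembly, fell by 0.65 and 0.35 on the log2 scale (limma adjusted p of 0.00897 and 0.0111). This list includes DMAC2L, which is also a member under its earlier symbol ATP5S, and SURF1 was listed at 0.

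Complex II has no mitochondrially encoded subunit. Of the 8 complex II genes tested 2 rose and 0 fell (2 and 0 at an unadjusted p under 0.05 in limma). Of all genes 16.2% rose and 20.9% fell, and the median log2 fold change of complex II was -0.01. SDHC, a membrane anchor, had 3063 and 3398 in TMZ-resistant and 2527 and 2656 in parental libraries, and the assembly factor SDHAF4 had 136 and 143 in TMZ-resistant and 73.2 and 80.3 in parental libraries, with log2 fold changes of 0.32 and 0.85 (limma adjusted p of 0.0186 and 0.00829). The catalytic subunits SDHA and SDHB did not pass (-0.02 and 0.12). Genes of coenzyme Q synthesis and other electron entry points split evenly, 5 higher and 5 lower of 20 tested beside 16.2% and 20.9% of all genes, with a median of 0.07. PDSS1, which makes the side chain of coenzyme Q, had 218 and 205 in TMZ-resistant and 473 and 439 in parental libraries and fell 2.15-fold (limma adjusted p = 0.000466). GPD2, which passes electrons from glycerol 3-phosphate to ubiquinone, had 2226 and 2203 in TMZ-resistant and 3640.4 and 3804 in parental libraries and fell 1.68-fold (limma adjusted p = 0.000265). COQ2, which joins ring and side chain, fell by 0.54 on the log2 scale (limma adjusted p = 0.00942). COQ8B, an ATPase that assists the synthesis, had 652 and 698 in TMZ-resistant and 329 and 406 in parental libraries and rose 1.84-fold (limma adjusted p = 0.00142).

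Genes often read as a measure of mitochondrial mass fell in 10 of 19 cases and rose in 1, beside 20.9% and 16.2% of all genes, with a median log2 fold change of -0.31. TOMM40, the pore through which nuclear-encoded members enter the mitochondrion, had 1518 and 1576 in TMZ-resistant and 3425 and 3599 in parental libraries and fell 2.27-fold (log2 fold change -1.18 ± 0.08 (SE), limma adjusted p = 5.80e-05). The chaperonin genes HSPD1 and HSPE1 fell 1.45-fold and 1.64-fold, and the prohibitin PHB 1.47-fold (limma adjusted p of 0.00064, 0.000539 and 0.000832). The gene that rose was the ADP/ATP carrier SLC25A6 (log2 fold change 0.42, limma adjusted p = 0.00223), and citrate synthase CS did not pass (-0.01). Set side by side, 7 of 98 nuclear respiratory chain members, 10 of 19 mass genes and 13 of 29 genes of mitochondrial RNA and DNA handling fell. The difference between these shares was not tested.

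**Figure D5:**
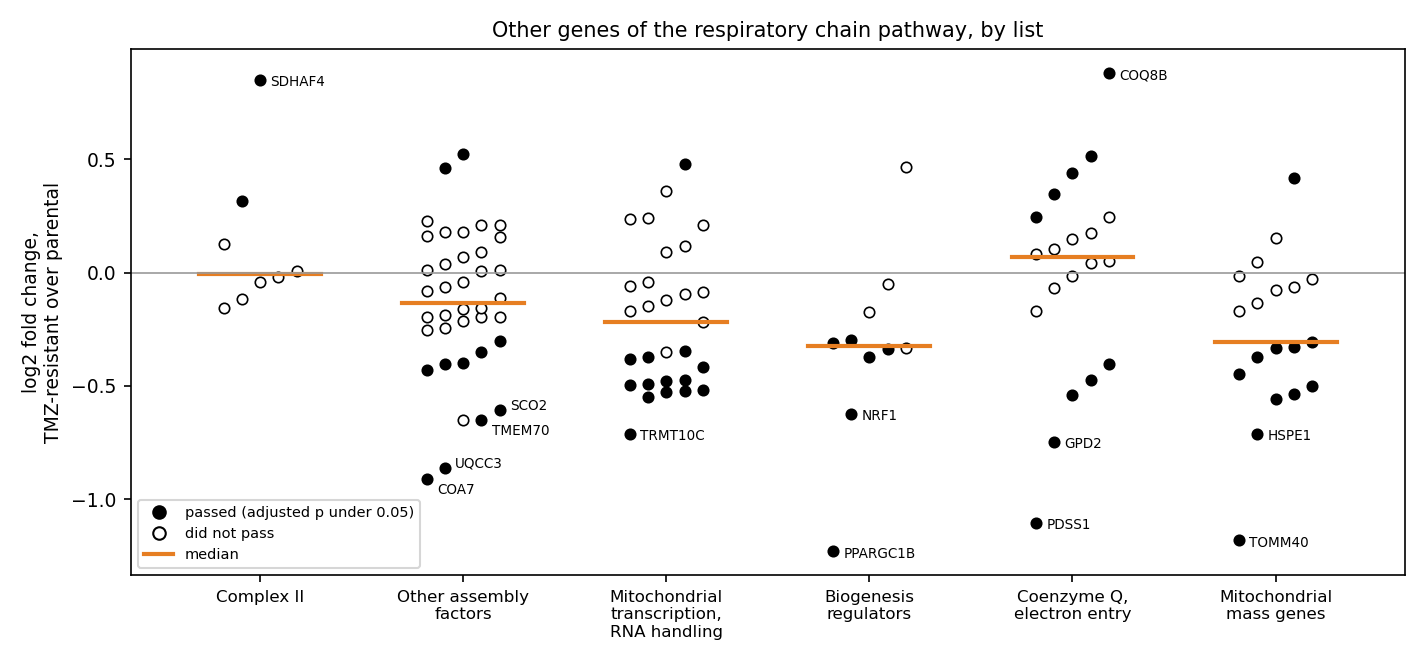
Log2 fold change (TMZ-resistant over parental) of other genes of the pathway, by list, with filled points for genes that passed the test (limma, adjusted p under 0.05) and orange bars for medians. The medians run from -0.32 for biogenesis regulators to 0.07 for coenzyme Q and electron entry genes.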

How the data were processed

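Total RNA was sequenced from 2 TMZ-resistant and 2 parental GBM8401 libraries, prepared with a strand-specific kit per the labels' protocols. The authors deposited a signal per gene and library: fragment numbers multiplied by a factor for each library. Cufflinks 2.2.1 and Cuffdiff, HISAT2 2.1.0, SAMtools 1.2, Trimmomatic 0.36 and bcl2fastq were used on GRCh38.p10, per the submitters' processing notes. The annotation release, scaling, strand and other settings were not given in the sources used here, so a gene and its antisense partner cannot be told apart.

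The smallest steps of the values correspond to 27019137 to 30759939 fragments per library, similar in both groups. Since the values are not whole (93.8% to 94.3% of those above 0 lay within 0.05 of a whole fragment number), the count-based test foreseen for whole counts, and its count-based alternatives, were not run. Genes were kept at a value of at least 10 in 2 libraries and a sum of at least 15. The limma fit (version 3.58.1 under R 4.3.3) used log2(value + 1), which understates changes of low genes. It had group as its only term, robust moderation and a mean-variance trend, and its two-sided p-values were Benjamini-Hochberg adjusted over all genes tested. The fit was tested on simulated data of 16132 genes, with 100 changed by 0.5 and 100 by 1 on the log2 scale. It recovered 43% of the smaller and 77% of the larger changes, with 25 false calls. In the data 5991 genes were called, far more than were changed in the simulation, so these rates need not carry over. The simulated fit missed true changes and made false calls. A member that did not pass is therefore not shown to be unchanged, and a call can be false. GENCODE 29 gave gene classes and coordinates for 57881 IDs.

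Named members were the 13 mitochondrial genes, the 8 largest called rises and falls without overlap with a mean log2 CPM no lower than 3, up to 4 called members per complex and direction by adjusted p, the isoform sets, CYCS, CYC1 and ATP5IF1, 48 in all. Members and lists were chosen with earlier results of these data known.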

Additional observations from a re-analysis of the deposited data

How the results depend on the processing

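Scaling moved the count of nuclear-encoded members that rose, of 98 tested, from 13 as deposited to 23 with TMM factors and 18 with median-of-ratios factors. It was 29 with either library total, with or without the mitochondrial genes. Of all 16132 genes, 2621 were called higher as deposited, 3158 with TMM and 2989 with median-of-ratios factors. With the library totals 3665 and 3648 were called higher. In the same order, the median of all genes shifted by 0.04, 0.03 and 0.10 or 0.09 on the log2 scale. Without the mean-variance trend and robust moderation, 3 nuclear members rose, 3 fell and 2 mitochondrial members fell, against 1771 and 1915 of all genes. Leaving out 1 library gave 3 to 11 nuclear rises, 3 to 7 nuclear falls and 4 to 8 mitochondrial falls; no setting run made a mitochondrial member rise. With the replicate block 29 nuclear members rose, 16 fell and 9 mitochondrial members fell. Of all 16132 genes 8624 were called with the block, 3903 higher and 4721 lower. Deviations of same-numbered libraries correlated at 0.265 across genes. With 2 pairs and no label tying a number to a shared culture, the libraries were not treated as paired. Pseudocounts of 0.5 and 5, no filter and a filter of 1 CPM left these counts within 1.5 times. COX15, NDUFB8, ATP5MD, NDUFAF4, UQCRFS1, CYCS, MT-ATP6 and MT-CO3 were called in all 14 alternatives; of 601 values of named members, 63 lost and 30 gained a call.

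The values that reversed were not called before or after. ATP5MC1 became 0.028 (TMM), 0.014 (median of ratios), 0.080 (library total) and 0.079 (library total without mitochondrial genes), and -0.093 to 0.062 with 1 library left out. MT-ND2 became 0.000117 (TMM), 0.052 and 0.051 (both library totals), and -0.24 to 0.16 with 1 library left out. Leaving out 1 library gave -0.40 to 0.19 for MT-ND6, -0.019 to 0.13 for COX7A2L and -0.13 to 0.27 for MT-CO2. The cause was not tested.

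With 2 libraries per group and 1 derived line, small differences in members of low level are not resolved. The 2 count-based tests on whole fragment numbers were not run because the values are not whole.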
